A study of Homo sapiens with 12 samples.

Results

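The 34 genes described here encode the chaperones of the endoplasmic reticulum (ER) and the unfolded protein response. They were taken by symbol as 5 sensors and transcription factors, 11 chaperones and co-chaperones, 6 disulfide enzymes, 7 genes of degradation and 5 of translocation and export. All 34 were among the 40929 gene symbols of each library and among the 15104 genes tested. RNA sequencing was done on MDA-MB-231, an established human line of triple-negative breast cancer labelled wild type and grown in RPMI with 10% fetal bovine serum. The groups were LGCAR (5 mM glucose with 25 µM cariporide), LG (5 mM glucose), CAR (10 mM glucose with 25 µM cariporide) and NG (10 mM glucose), with 48 h of treatment and 3 libraries each. Cariporide is a small-molecule inhibitor of ion transport. The labels do not state that the 3 libraries are separate cultures, so p-values measure only the spread between these libraries, which may be technical.

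Secreted and membrane proteins enter the ER through the SEC61 channel, are folded by chaperones of the HSP70 and HSP90 families and by lectins, and receive disulfide bonds from protein disulfide isomerases. Proteins that fail to fold are pulled back into the cytosol and degraded. When unfolded proteins accumulate, the sensors IRE1 (ERN1), PERK (EIF2AK3) and ATF6 are released from the chaperone BiP (HSPA5), and the factors XBP1, ATF6 and ATF4 raise transcription of chaperone, degradation and translocation genes. BiP was first described as a glucose-regulated protein, raised in cultured cells starved of glucose.

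Library totals ran from 18069004 to 24837409 counts. TXNIP, a gene whose transcription follows glucose supply, had 84.3, 79.9 and 94.6 CPM (counts scaled to a common library size by TMM, which assumes that most genes do not change) in LGCAR, 40.6, 49.98 and 48.6 in LG, 263, 249 and 245 in CAR and 255, 259 and 278 in NG. It was thus lower in every library at 5 mM glucose than in any at 10 mM. The 8 markers of the line summed to 5526 to 5628 CPM in LGCAR, 5451 to 5629 in LG, 5291 to 5409 in CAR and 5387 to 5469 in NG. The 5 markers of professional secretory cells summed to at most 0.112 CPM in LGCAR, 0.0471 in LG, 0.166 in CAR and 0.0850 in NG. In LGCAR against NG the line marker KRT18 fell (edgeR log2 fold change -0.28, adjusted p = 0.0140) and AXL was at 0.48 (edgeR adjusted p = 0.0533). The epithelial marker CDH1, at 1.72 to 2.47 CPM in LGCAR and 1.11 to 1.31 CPM in NG, rose (edgeR log2 fold change 0.79, adjusted p = 0.0335), as did the fibroblast marker PDGFRB, at 11.99 to 13.1 CPM in LGCAR and 9.43 to 10.6 CPM in NG (edgeR log2 fold change 0.35, adjusted p = 0.0365). Among the luminal and receptor markers listed with CDH1, mean CPM in LGCAR and NG was 12.1 and 11.98 for EPCAM. It was 61.8 and 57.6 for ERBB2 and 11.96 and 10.4 for GATA3. Among the fibroblast markers listed with PDGFRB it was 7.82 and 7.94 for COL1A1 and 0.980 and 1.13 for LUM. The other genes of both lists did not pass the filter for testing. The part of these markers in the results was not tested. By the chi-square per degree of freedom between libraries, CAR 1 (15.4 and 18.3, against 2.82 between CAR 2 and CAR 3) and LG 3 (9.92 and 16.8, against 3.53 between LG 1 and LG 2) stood apart within their groups. In NG the value was 24.6 between NG 1 and NG 3 and 10.6 and 10.7 from these to NG 2, so neither end stood apart alone. Ribosomal RNA took 9.32% to 11.5% of the counts in LGCAR, 7.91% to 9.06% in LG, 7.10% to 8.53% in CAR and 7.83% to 11.2% in NG. It was highest in LGCAR 3 and NG 1. Counts of calls are given also without NG 3, CAR 1 and LG 3, and without NG 1 and LGCAR 3.

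The promoters of the folding genes are shown first, because the element through which ATF6 and XBP1 act on them could be read directly in the reference sequence. RefSeq (GRCh38.p14) windows from 250 bases before to 50 after the annotated start were found for 30 of the 34 members. The ER stress response element, ERSE (CCAAT and CCACG with a spacer of 9 bases), was searched on both strands and lay in 9 of the 30 (30%), against 25 of the 27305 symbols with a window (0.0916%). ERSE-II (ATTGG and CCACG with a spacer of 1 base) lay in 3 members (10%), against 0.0696% of all symbols. The members were listed as genes of this response, so their higher shares describe the list and are no test. The windows of HSPA5, at chr9:125241294-125241593 on the minus strand, and HYOU1, at chr11:119057156-119057455 on the minus strand, are printed whole because both genes were lower in LG and in LGCAR. Capitals mark the fixed letters of ERSE in HSPA5. In HYOU1 they mark 2 copies of ERSE-II on the opposite strand and, overlapping the first of them, a UPRE (TGACGTGG), which lay in 0.927% of all symbols.
HSPA5: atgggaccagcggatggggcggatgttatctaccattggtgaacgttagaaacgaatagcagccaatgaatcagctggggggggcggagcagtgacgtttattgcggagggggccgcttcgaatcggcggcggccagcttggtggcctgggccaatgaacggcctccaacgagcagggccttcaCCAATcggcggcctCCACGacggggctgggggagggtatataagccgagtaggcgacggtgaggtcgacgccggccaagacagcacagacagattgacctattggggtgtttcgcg
HYOU1: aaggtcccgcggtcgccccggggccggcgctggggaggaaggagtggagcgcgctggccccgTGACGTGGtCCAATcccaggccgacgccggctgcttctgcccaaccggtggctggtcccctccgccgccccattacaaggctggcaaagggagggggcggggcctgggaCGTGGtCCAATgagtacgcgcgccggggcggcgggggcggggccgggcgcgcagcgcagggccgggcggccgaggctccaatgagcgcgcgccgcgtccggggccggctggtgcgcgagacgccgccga

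The single elements of 9 further members are shown to compare their letters, each read 5′ to 3′ on the strand where it matched. Capitals are the fixed letters and lower case the spacer. The elements of CRELD2, SERP1, CALR, ERO1B and SDF2L1 matched on the opposite strand, as did the HSP90B1 copy so marked. The position given in brackets is that of the element's base nearest the annotated start, which is position 0.
XBP1 ERSE (-34): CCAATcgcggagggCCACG
HSP90B1 ERSE, upstream copy (-176): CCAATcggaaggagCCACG
HSP90B1 ERSE, copy on the opposite strand (-71): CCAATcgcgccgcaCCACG
CRELD2 ERSE (-62): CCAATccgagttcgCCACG
PDIA6 ERSE (-68): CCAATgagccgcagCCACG
SERP1 ERSE (-214): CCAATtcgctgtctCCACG
CALR ERSE (-207): CCAATgatggtcgaCCACG
ERO1B ERSE (-225): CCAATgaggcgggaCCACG
SDF2L1 ERSE-II (-178): ATTGGtCCACG
HERPUD1 ERSE-II (-107): ATTGGgCCACG
CANX also held an ERSE. The amino acid response element of ATF4, AARE (TGATGNAAT), lay in 0 of the 30 member windows and in 1.22% of all symbols. A match describes these letters only, and its absence means only that no exact copy lay in the windows searched. No binding was measured.

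LGCAR was set against NG to ask for the joint effect of lower glucose and cariporide, and 17 of the 34 members were lower and 0 higher in LGCAR by edgeR's quasi-likelihood test, adjusted over all genes by Benjamini-Hochberg. The background was 8.75% of all tested genes called, 4.12% lower and 4.63% higher. With the test limited to genes averaging 5 CPM or more, which 33 members did, it was 14.1%, and the 17 members kept their calls. The members' median log2 fold change was -0.16, against 0.01 over all genes, and 28 of the 34 values were negative. The decreases were small, from 10.6% for P4HB to 30.9% for BHLHA15. They covered 8 of 11 chaperones, 3 of 6 disulfide enzymes, 3 of 7 degradation genes, 2 of 5 translocation and export genes and 1 of 5 sensors and factors. In bulk RNA, fewer cells that make a transcript and less of it per cell cannot be told apart. Without NG 3, CAR 1 and LG 3, 23 members were lower and 2 higher (19.1% of all genes called). Without NG 1 and LGCAR 3, 7 were lower (1.71% of all genes called), and without NG 3 alone, 6 were lower (0.889%). The count was 11 without NG 2 (1.90% of all genes called) or LGCAR 2 (2.11%) and 9 without LGCAR 1 (1.28%) or LGCAR 3 (2.18%). The 23 lower without NG 3, CAR 1 and LG 3 were the 17 with XBP1, CALR, CANX, PDIA3, DERL1 and SEC61A1.

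**Figure D1:**
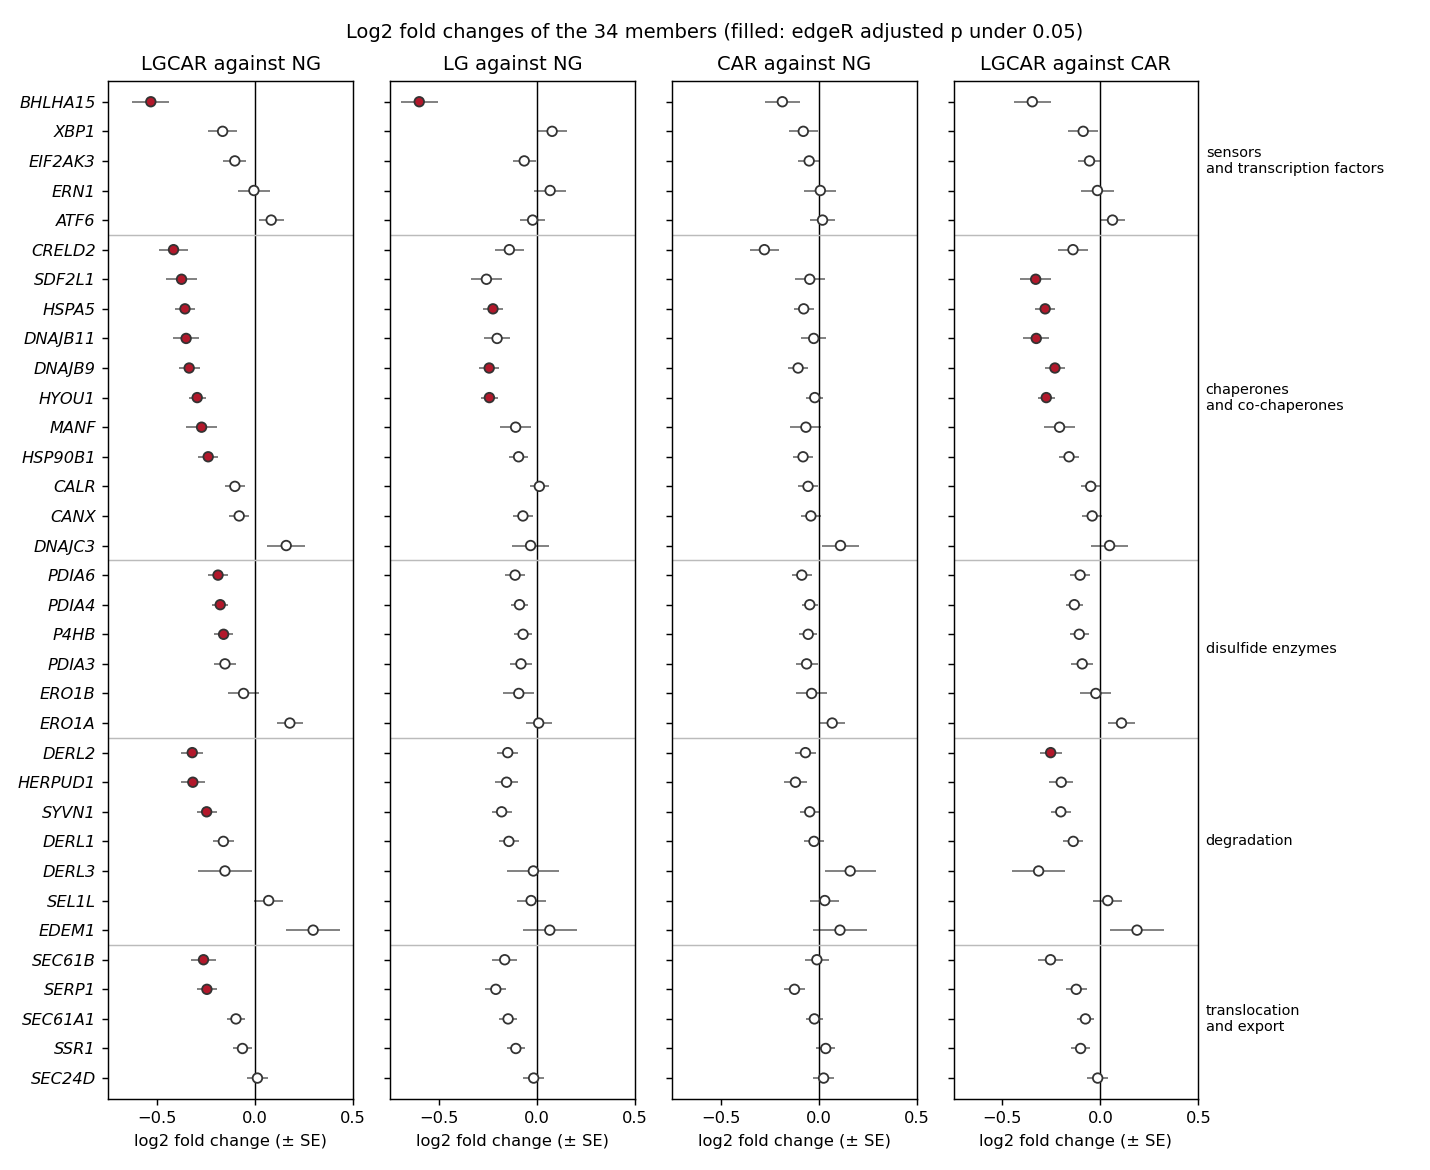
Log2 fold changes of the 34 members (x axis, with SE) by edgeR in 4 comparisons, grouped by role from top to bottom, with filled points for an adjusted p under 0.05. Filled points lie to the left of 0 in all panels that hold any: 17 in LGCAR against NG, 4 in LG against NG, 0 in CAR against NG and 6 in LGCAR against CAR.

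Together the members took 14341 ± 174 CPM in LGCAR, 15135 ± 52.3 in LG, 15890 ± 241 in CAR and 16478 ± 392 in NG (SD, n = 3 each). The sum was lower in each LGCAR library (14202 to 14537 CPM) than in any NG library (16111 to 16892 CPM), and so also with NG 3, or NG 1 and LGCAR 3, set aside. HSPA5 alone made up 25.8% of it in LGCAR, 26.8% in LG, 28.3% in CAR and 28.8% in NG. Without HSPA5 the sums were 10641 ± 148 CPM in LGCAR, 11073 ± 3.29 in LG, 11390 ± 110 in CAR and 11733 ± 193 in NG. Per kilobase of exon, the level of HSPA5 was 947 CPM in LGCAR and 1214 CPM in NG, the highest of the members in both groups. CALR followed with 519.8 and 559 CPM per kilobase, and DERL3 was lowest with 0.761 and 0.845.

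The 3 sensors were not called in any of the 6 tests. ATF6, a transcription factor held in the ER membrane until it is cleaved in the Golgi, had 102, 109 and 105 CPM in LGCAR, 102, 103 and 89.8 CPM in LG, 92.6, 103 and 108 CPM in CAR and 104, 95.8 and 98.9 CPM in NG. ERN1, the kinase and endonuclease IRE1 that splices XBP1 mRNA, had 31.1, 32.3 and 30.000 CPM in LGCAR, 35.1, 32.01 and 31.2 CPM in LG, 29.3, 31.8 and 33.3 CPM in CAR and 35.04, 31.7 and 27.3 CPM in NG. EIF2AK3, the kinase PERK that slows translation through eIF2α, had 30.3, 30.1 and 31.5 CPM in LGCAR, 32.4, 29.6 and 32.4 CPM in LG, 30.2, 32.4 and 32.97 CPM in CAR and 33.5, 32.2 and 33.1 CPM in NG. The LGCAR and NG libraries overlapped for ATF6 and ERN1, whose log2 fold changes were 0.08 and -0.01. For EIF2AK3 each LGCAR library was lower than each NG library, by 6.98% in the mean, but the test did not pass (edgeR log2 fold change -0.10 with SE 0.0591, adjusted p = 0.252). Exons of an opposite-strand gene covered 15.1% of its exon length. Whether counting used the strand is not given, so its counts are uncertain.

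XBP1, whose spliced mRNA encodes the main factor downstream of IRE1, had 86.4, 87.3 and 92.2 CPM in LGCAR, 96.8, 97.9 and 120.2 CPM in LG, 102, 88.6 and 92.2 CPM in CAR and 98.2, 97.1 and 103 CPM in NG. CAR 2 lay among the 3 LGCAR libraries, the other 8 libraries lay above them, and LG 3 was the highest of all 12. In LGCAR against NG it was not called (edgeR log2 fold change -0.17 with SE 0.0751, adjusted p = 0.154), but without NG 3, CAR 1 and LG 3 it was called lower, at -0.15 (edgeR adjusted p = 0.0152). Counts per gene do not separate spliced from unspliced XBP1. BHLHA15, the factor MIST1 of secretory cells and a known target of XBP1, had 7.86, 8.59 and 7.45 CPM in LGCAR, 7.698, 7.09 and 8.01 CPM in LG, 10.8, 10.1 and 9.49 CPM in CAR and 12.3, 11.03 and 11.2 CPM in NG. All 6 libraries at 5 mM glucose were below all 6 at 10 mM. BHLHA15, at chr7:98211439-98215457, fell in LGCAR against NG (edgeR log2 fold change -0.53 with SE 0.0954, adjusted p = 0.00580) and in LG against NG (edgeR log2 fold change -0.60 with SE 0.094, adjusted p = 0.00422), and it was not called in LGCAR against CAR (edgeR log2 fold change -0.35 with SE 0.0956, adjusted p = 0.0808). Its LG call held under all 21 alternative settings, and its LGCAR call in all but the one without NG 1 and LGCAR 3 (edgeR adjusted p = 0.0599).

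Chaperones made up the role with the largest number of decreases. HSPA5, the HSP70 chaperone BiP, had 3689, 3731 and 3682 CPM in LGCAR, 4034, 4025 and 4125 CPM in LG, 4556, 4349 and 4596 CPM in CAR and 4674, 4583 and 4980.5 CPM in NG. HYOU1, the nucleotide exchange factor GRP170 of BiP, had 679.8, 666 and 671 CPM in LGCAR, 710.4, 701 and 682 CPM in LG, 805, 799 and 839 CPM in CAR and 835, 821 and 822 CPM in NG. DNAJB9, the co-chaperone ERdj4 that restrains IRE1, had 66.8, 68.002 and 60.9 CPM in LGCAR, 68.4, 68.5 and 71.9 CPM in LG, 78.9, 74.1 and 76.8 CPM in CAR and 82.4, 81.6 and 83.2 CPM in NG. HSPA5 lies at chr9:125234853-125241343, HYOU1 at chr11:119044188-119057205 and DNAJB9 at chr7:108569874-108574850 (RefSeq, GRCh38.p14). In each of the 3 genes every LGCAR library was below every CAR and NG library, and so was every LG library. HSPA5 fell by 22.02% in LGCAR against NG (edgeR log2 fold change -0.36 with SE 0.0517, adjusted p = 0.00180), HYOU1 by 18.6% (edgeR log2 fold change -0.30 with SE 0.0437, adjusted p = 0.00195) and DNAJB9 by 20.9% (edgeR log2 fold change -0.34 with SE 0.053, adjusted p = 0.00300). These 3 calls held under all 21 alternatives, with log2 fold changes of -0.39 to -0.31 for HSPA5, -0.37 to -0.29 for HYOU1 and -0.37 to -0.25 for DNAJB9.

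A further 3 genes grouped with the chaperones fell in LGCAR against NG. DNAJB11, the co-chaperone ERdj3, had 95.2, 101 and 94.6 CPM in LGCAR, 105, 102 and 116 CPM in LG, 132, 112 and 121 CPM in CAR and 119, 123 and 129.97 CPM in NG. SDF2L1, its partner in a complex with BiP, had 21.02, 17.3 and 20.2 CPM in LGCAR, 23.7, 20.1 and 19.7 CPM in LG, 24.6, 24.1 and 24.98 CPM in CAR and 25.4, 25.9 and 24.7 CPM in NG. CRELD2, an ER-resident protein induced by ER stress, had 14.9, 14.8 and 14.5 CPM in LGCAR, 17.3, 17.2 and 18.98 CPM in LG, 17.3, 14.8 and 16.4 CPM in CAR and 20.3, 20.02 and 18.6 CPM in NG. All LGCAR libraries lay below all NG libraries for the 3 genes. For CRELD2 the CAR libraries also lay below NG. Relative to NG, DNAJB11 fell by 21.7% (edgeR adjusted p = 0.00739), SDF2L1 by 22.96% (edgeR adjusted p = 0.0141) and CRELD2 by 25.1% (edgeR adjusted p = 0.00629). Of the exon length of DNAJB11, 15.3% overlapped an opposite-strand gene, so its counts are uncertain, and its call was lost without NG 3 (edgeR adjusted p = 0.0540). Leaving out NG 2, NG 3 or LGCAR 2 ended the call of SDF2L1, at an edgeR adjusted p of 0.0533 to 0.0624. The call of CRELD2 was kept without any 1 library, and the joint removal of NG 1 and LGCAR 3 ended it at an edgeR adjusted p of 0.0569.

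Of the remaining chaperones, HSP90B1, the HSP90 chaperone GRP94, fell by 15.3% in LGCAR against NG (edgeR log2 fold change -0.24 with SE 0.0499, adjusted p = 0.0126). Leaving out NG 3, LGCAR 1 or LGCAR 3 ended that call, at an edgeR adjusted p of 0.0593 to 0.0698. MANF, a secreted protein that binds BiP, fell by 17.3% (edgeR log2 fold change -0.27 with SE 0.0799, adjusted p = 0.0461). The call of MANF was lost without any 1 of NG 2, NG 3 and the 3 LGCAR libraries (edgeR adjusted p = 0.0752 to 0.200). The lectin chaperones of the calnexin cycle were not called in that comparison, with log2 fold changes of -0.10 ± 0.0497 for CALR and -0.08 ± 0.0513 for CANX (SE). DNAJC3, the co-chaperone p58IPK, stood on the other side of 0 (edgeR log2 fold change 0.16 with SE 0.0959, adjusted p = 0.292). It had 101, 97.99 and 106 CPM in LGCAR, 95.2, 94.6 and 76.9 CPM in LG, 83.4, 105 and 106 CPM in CAR and 97.2, 89.3 and 86.4 CPM in NG. Each LGCAR library was above each NG library, while LG 3 and CAR 1 were the lowest of the 12.

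**Figure D2:**
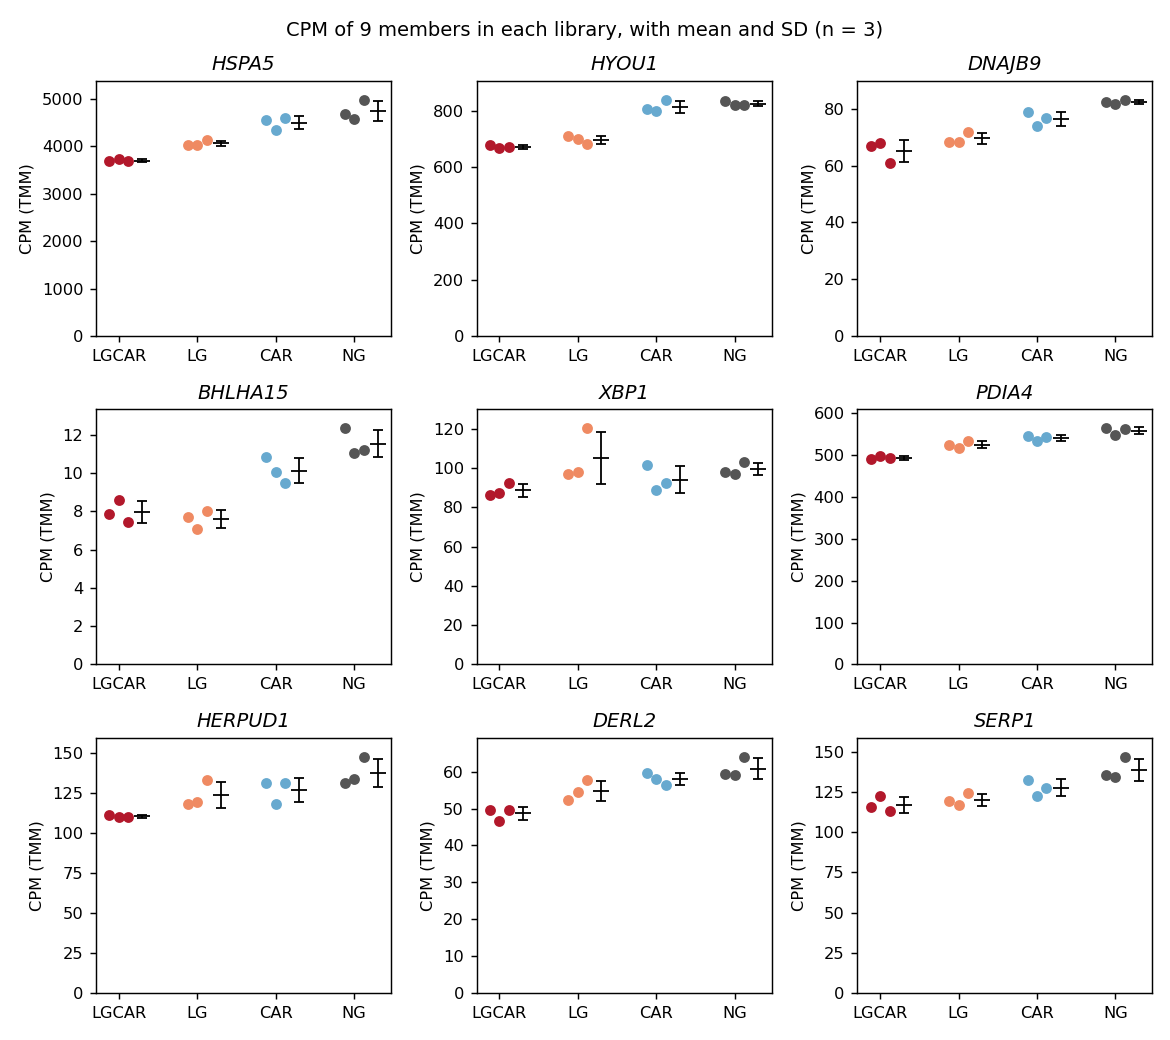
CPM (y axis, from 0) of 9 members in each library (points, replicates 1 to 3 from left to right) of LGCAR, LG, CAR and NG, with the mean and SD of 3 libraries to the right of the points. HSPA5, HYOU1, DNAJB9 and BHLHA15 separate the 5 mM from the 10 mM groups, and XBP1 in LG is spread by LG 3.

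Of the disulfide enzymes, 3 of the 4 isomerases fell in LGCAR against NG and neither oxidase was called. PDIA4, the isomerase ERp72, had 489.8, 498 and 493 CPM in LGCAR, 523, 518 and 534 CPM in LG, 546, 533 and 544 CPM in CAR and 564, 549 and 563 CPM in NG. PDIA6, the isomerase P5, had 343, 367 and 354 CPM in LGCAR, 363, 368 and 392 CPM in LG, 399.5, 373 and 371 CPM in CAR and 391, 398 and 426 CPM in NG. P4HB, the archetypal protein disulfide isomerase, had 768, 776 and 789 CPM in LGCAR, 809, 819 and 857 CPM in LG, 882, 823 and 810.03 CPM in CAR and 866, 869 and 875 CPM in NG. All LGCAR libraries were below all NG libraries for each of the 3. PDIA4 fell by 11.7% in LGCAR against NG (edgeR log2 fold change -0.18 with SE 0.0418, adjusted p = 0.0204), PDIA6 by 12.4% (edgeR log2 fold change -0.19 with SE 0.0521, adjusted p = 0.0354) and P4HB by 10.6% (edgeR log2 fold change -0.16 with SE 0.0474, adjusted p = 0.0450). PDIA4 and PDIA6 lost their calls without any 1 of NG 2, NG 3 and the 3 LGCAR libraries and P4HB without any 1 of the 6 (edgeR adjusted p = 0.0556 to 0.0867, 0.0649 to 0.168 and 0.0523 to 0.152). Of the exon length of PDIA6, 25.2% overlapped an opposite-strand gene, so its counts are uncertain. PDIA3, which works with the lectins CALR and CANX, was not called (edgeR log2 fold change -0.15 with SE 0.0563, adjusted p = 0.0862), and 18.9% of its exon length had such an overlap.

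ERO1A, the oxidase that recharges the isomerases, had 268, 262 and 263 CPM in LGCAR, 253, 242 and 210.5 CPM in LG, 227, 254 and 255 CPM in CAR and 248, 234 and 219 CPM in NG. Each LGCAR library was above each library of NG, LG and CAR, but the test did not pass (edgeR log2 fold change 0.18 with SE 0.067, adjusted p = 0.0971). Its relative ERO1B was at 15.4 to 18.5 CPM in LGCAR and 17.3 to 18.2 CPM in NG, and was not called (edgeR log2 fold change -0.06 with SE 0.0805, adjusted p = 0.658). Without NG 3, CAR 1 and LG 3, ERO1A was called higher in LGCAR against NG, with a log2 fold change of 0.12 (edgeR adjusted p = 0.0188).

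Of the genes of ER-associated degradation, 3 of 7 fell in LGCAR against NG. SYVN1, the ubiquitin ligase HRD1, had 127, 127 and 124 CPM in LGCAR, 129.7, 133 and 134 CPM in LG, 154, 141 and 140.2 CPM in CAR and 143, 148 and 158 CPM in NG. HERPUD1, which helps to assemble the HRD1 complex, had 111, 109.9 and 110.00 CPM in LGCAR, 118, 119.5 and 133 CPM in LG, 131, 118 and 131 CPM in CAR and 132, 134 and 148 CPM in NG. DERL2, a derlin of the retrotranslocation channel, had 49.7, 46.6 and 49.7 CPM in LGCAR, 52.4, 54.4 and 57.8 CPM in LG, 59.7, 57.9 and 56.5 CPM in CAR and 59.4, 59.04 and 64.01 CPM in NG. LGCAR lay below NG in all libraries of the 3 genes. DERL2 fell by 19.99% in LGCAR against NG (edgeR log2 fold change -0.32 with SE 0.0558, adjusted p = 0.00523), HERPUD1 by 19.8% (edgeR log2 fold change -0.32 with SE 0.0608, adjusted p = 0.00840) and SYVN1 by 15.8% (edgeR log2 fold change -0.25 with SE 0.0511, adjusted p = 0.0120). The DERL2 call held under all 21 alternatives and that of HERPUD1 in all but the one without NG 3 (edgeR adjusted p = 0.0587). Leaving out NG 3, LGCAR 1 or LGCAR 3 ended the call of SYVN1, at an edgeR adjusted p of 0.0510 to 0.0738.

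SEL1L, the adaptor of HRD1, and EDEM1, a mannosidase-like protein that selects glycoproteins for degradation, were not called. EDEM1 had 211, 197 and 196 CPM in LGCAR, 199, 179 and 137 CPM in LG, 147, 193 and 191 CPM in CAR and 179.7, 159 and 154 CPM in NG. It was higher in each LGCAR library than in any NG library, and LG 3 and CAR 1 were the lowest libraries of all. The test did not pass (edgeR log2 fold change 0.30 with SE 0.139, adjusted p = 0.190). Without NG 3, CAR 1 and LG 3 it was called higher, with a log2 fold change of 0.24 (edgeR adjusted p = 0.00457). SEL1L overlapped between LGCAR and NG (edgeR log2 fold change 0.07 with SE 0.0738, adjusted p = 0.573). DERL1 and DERL3, the other derlins, were not called, with log2 fold changes of -0.16 ± 0.0522 and -0.15 ± 0.138 (SE). DERL3 was the lowest member, at 2.55 to 3.19 CPM in LGCAR and 2.998 to 3.44 CPM in NG, and 77% of its exon length overlapped an opposite-strand gene.

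At the translocon, SEC61B, the small beta subunit of the channel, had 53.1, 56.8 and 54.7 CPM in LGCAR, 57.4, 55.7 and 63.3 CPM in LG, 71.4, 60.9 and 63.95 CPM in CAR and 66.4, 64.9 and 66.2 CPM in NG. SERP1, a small protein bound to the channel and also called RAMP4, had 116, 123 and 113 CPM in LGCAR, 119, 117 and 125 CPM in LG, 133, 122 and 128 CPM in CAR and 136, 135 and 147 CPM in NG. SEC61A1, the pore-forming subunit, had 357, 363 and 367 CPM in LGCAR, 363, 354 and 334 CPM in LG, 376, 377 and 394 CPM in CAR and 389, 391 and 384 CPM in NG. LGCAR was below NG in all libraries of the 3 genes. SERP1 fell by 15.7% in LGCAR against NG (edgeR log2 fold change -0.25 with SE 0.053, adjusted p = 0.0141) and SEC61B by 16.7% (edgeR log2 fold change -0.26 with SE 0.064, adjusted p = 0.0231), while SEC61A1 was not called (edgeR log2 fold change -0.10 with SE 0.0453, adjusted p = 0.161). Leaving out NG 3, LGCAR 1 or LGCAR 3 ended the call of SERP1, at an edgeR adjusted p of 0.0652 to 0.0870. Leaving out any 1 of NG 2, NG 3 and the 3 LGCAR libraries ended that of SEC61B, at 0.0544 to 0.103. SSR1, a subunit of the translocon-associated complex, and SEC24D, a cargo adaptor of COPII vesicles, were not called, with log2 fold changes of -0.07 ± 0.0471 and 0.01 ± 0.0543 (SE). With the trend on exon length removed, SSR1 was called lower in LGCAR against NG (edgeR log2 fold change -0.22, adjusted p = 0.00239), in LG against NG (-0.17, adjusted p = 0.0155) and in LGCAR against CAR (-0.20, adjusted p = 0.00738).

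**Figure D3:**
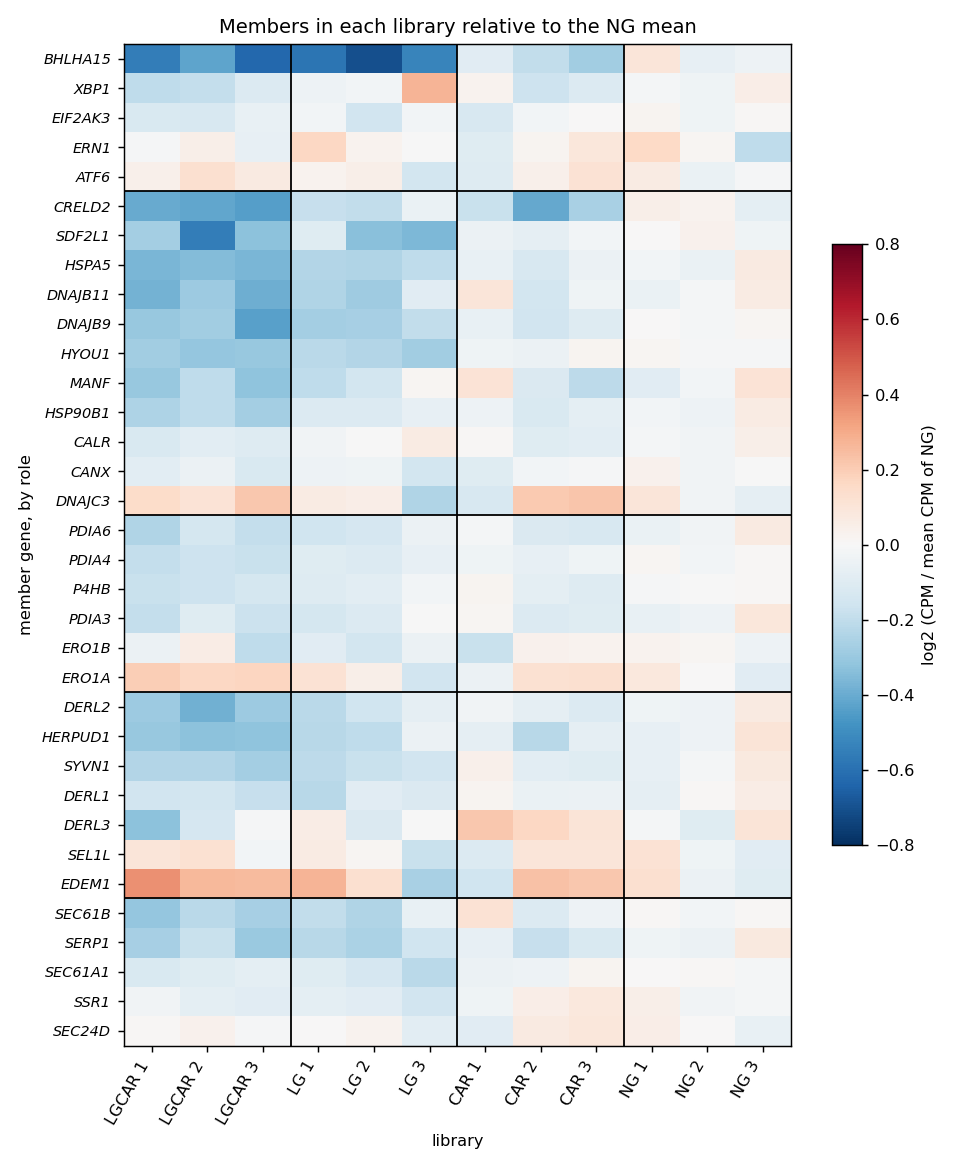
Log2 ratio of the CPM of each member (rows, by role) in each library (columns) to its mean in NG, from -0.8 (blue) to 0.8 (red). Most rows are blue in LGCAR and paler blue in LG, while EDEM1, ERO1A and DNAJC3 are red in LGCAR and blue in LG 3.

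LG was set against NG to ask for the effect of lower glucose alone. In LG 4 of the 34 members fell and 0 rose, where 1.73% of all tested genes were called (0.728% lower and 1% higher). The 4 were BHLHA15, with 34.1% less in LG, HYOU1 with 15.5% less (edgeR log2 fold change -0.24 with SE 0.0436, adjusted p = 0.00895), DNAJB9 with 15.6% less (edgeR log2 fold change -0.24 with SE 0.0525, adjusted p = 0.0264) and HSPA5 with 14.4% less (edgeR log2 fold change -0.22 with SE 0.0517, adjusted p = 0.0361). The median log2 fold change of the members was -0.10, against 0.01 over all genes, and 29 of the 34 values were negative. HYOU1 lost its call only when both NG 1 and LGCAR 3 were left out, at an edgeR adjusted p of 0.0631, whereas HSPA5 and DNAJB9 lost theirs without any 1 of NG 1, NG 2, NG 3, LG 1 or LG 2. Those edgeR adjusted p-values were between 0.0596 and 0.163. The count of members called was then 2, with the share of all genes called not given here. Both calls were also lost with the groups compared alone and without NG 1 and LGCAR 3, and that of HSPA5 with library totals. Without NG 3, CAR 1 and LG 3, 10 members fell: the same 4 with DNAJB11, HERPUD1, SEC61A1, SEC61B, SERP1 and SYVN1 (7.34% of all genes called).

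CAR was set against NG to ask for the effect of cariporide at 10 mM glucose. By edgeR 0 members were called, as were 0 by DESeq2 and 0 by limma-voom, and 0% of all tested genes were called by edgeR. At an unadjusted p under 0.05 there were 2 members, CRELD2 (edgeR log2 fold change -0.28 with SE 0.0729, adjusted p = 0.894) and SERP1 (edgeR log2 fold change -0.12 with SE 0.0526, adjusted p = 0.894), and 684 of all tested genes (4.53%). The members' median log2 fold change was -0.05, against 0.00 over all genes, and 25 of the 34 values were negative. Without NG 3, CAR 1 and LG 3, CRELD2 was called lower in CAR with a log2 fold change of -0.37 (edgeR adjusted p = 0.0108) and DNAJC3 higher with 0.18 (edgeR adjusted p = 0.0396), among 3.79% of all genes called.

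LGCAR was set against CAR to ask for the effect of lower glucose in the presence of cariporide. In LGCAR 6 members fell and 0 rose, where 1.65% of all tested genes were called (0.675% lower and 0.973% higher). HYOU1 fell by 17.4% (edgeR log2 fold change -0.28 with SE 0.0437, adjusted p = 0.00462), HSPA5 by 17.8% (edgeR log2 fold change -0.28 with SE 0.0517, adjusted p = 0.0122) and DNAJB11 by 20.3% (edgeR log2 fold change -0.33 with SE 0.0657, adjusted p = 0.0202). DERL2, DNAJB9 and SDF2L1 changed by -0.25, -0.23 and -0.33 (edgeR adjusted p = 0.0313, 0.0374 and 0.0482). The members' median was -0.12, against 0.01 over all genes. HYOU1 lost its call only without NG 1 and LGCAR 3 (edgeR adjusted p = 0.0501). Leaving out CAR 3 or any 1 LGCAR library ended the calls of HSPA5, at an edgeR adjusted p of 0.0557 to 0.0691, and DNAJB11, at 0.0602 to 0.0979. Leaving out any 1 of the 6 libraries ended those of DERL2, DNAJB9 and SDF2L1, at 0.0507 to 0.201. The count of members called was thus 3 without CAR 1 and 1 without CAR 3 or any 1 LGCAR library. Ribosomal RNA took more of the counts in each LGCAR library than in any CAR library. With that share as a covariate HYOU1 alone of the members was called. How many of all genes were called in these settings is not given here, so a loss particular to the members is not shown. Without NG 3, CAR 1 and LG 3, 12 members fell, among 6.24% of all genes called.

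LGCAR was set against LG to ask for the effect of cariporide at 5 mM glucose. By edgeR 0 members were called, as were 0 by DESeq2 and 0 by limma-voom, where 0.00662% of all tested genes were called by edgeR. At an unadjusted p under 0.05 there were 10 of the 34 members, against 11.9% of all tested genes. The members' median log2 fold change was -0.07, against -0.001 over all genes. Of the 34 values 24 were negative, against 50.4% over all genes. CRELD2 (edgeR log2 fold change -0.28 with SE 0.0758, adjusted p = 0.311) and XBP1 (edgeR log2 fold change -0.24 with SE 0.075, adjusted p = 0.345) had the smallest unadjusted p-values. The interaction, the cariporide effect at 5 mM less the one at 10 mM glucose, was called for 0 members by edgeR, DESeq2 and limma-voom. It had an unadjusted p under 0.05 in 0 of the 34, and 0.00662% of all tested genes were called by edgeR. For HSPA5 it was -0.06 ± 0.0731 and for BHLHA15 0.25 ± 0.134 (SE), so that a larger effect of cariporide at either glucose level was not shown for these genes. Side by side and with NG shared between them, the log2 fold changes of HSPA5 were -0.36 in LGCAR, -0.22 in LG and -0.08 in CAR. For CRELD2 they were -0.42, -0.14 and -0.28 in the same order.

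The members also varied together within the groups. In all of NG 3, CAR 1 and LG 3, 18 members were higher than the mean of the other 2 libraries of the group, 11 were lower and 5 were mixed. The 11 were ATF6, ERN1, HYOU1, DNAJC3, CANX, ERO1A, SEL1L, EDEM1, SEC61A1, SSR1 and SEC24D. Their exons had a median length of 7694 bases, against 4170.5 bases for the 18. EDEM1 was lower by 0.46 on the log2 scale in LG 3 and by 0.38 in CAR 1, and XBP1 was higher by 0.30 in LG 3 and by 0.17 in CAR 1. Of the 18, 13 were called lower in LGCAR against NG, with a median log2 fold change of -0.24, and of the 11 only HYOU1, with a median of 0.01. NG 3 enters both of these measures. Across 13284 genes with a length, the correlation of a library's deviation from its group mean with log2 exon length was -0.16 in NG 3, -0.32 in CAR 1 and -0.27 in LG 3. It lay between -0.04 and 0.22 in the other 9 libraries. In NG 1 it was 0.17 and in NG 2 -0.01, so on this measure too neither end of NG stood apart alone. Each deviation is from the mean of the library's own group, so the values within a group depend on each other. Genes are not independent replicates, so these correlations describe libraries. With the trend on length removed, 18 members were lower in LGCAR against NG, among 10.2% of all genes called. They included 15 of the 17, without PDIA4 and SDF2L1, with CANX, DERL1 and SSR1 besides.

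**Figure D4:**
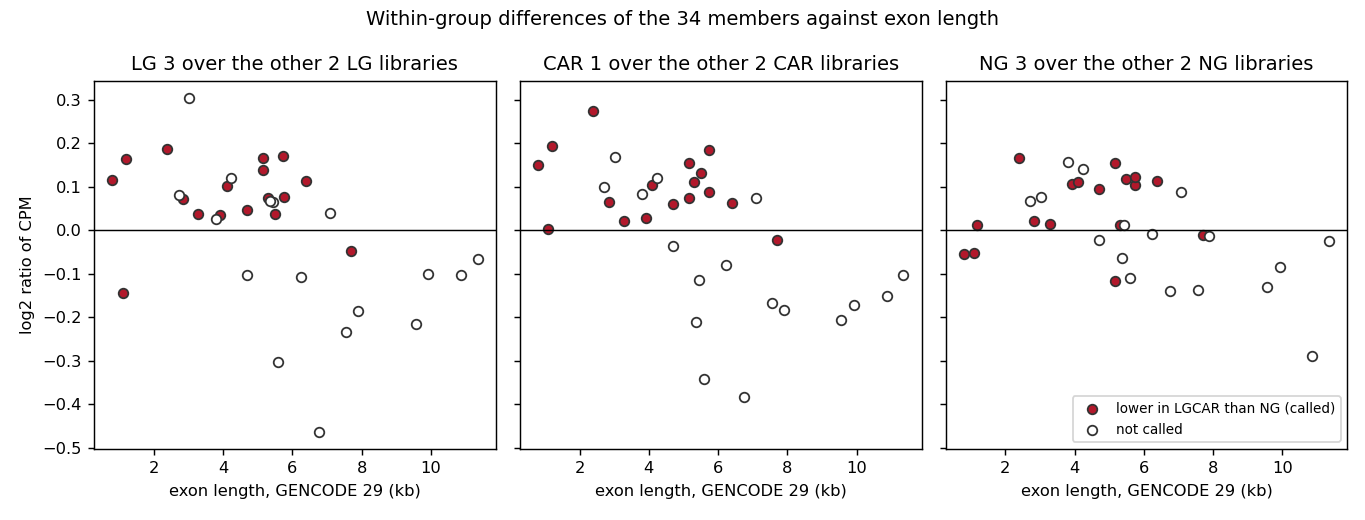
Log2 ratio of CPM (y axis) of each member in LG 3, CAR 1 or NG 3 to the mean of the other 2 libraries of that group, against exon length in kilobases (x axis). Filled points are the 17 members lower in LGCAR than in NG, and all members with exons over 9 kb lie below 0 in the 3 libraries.

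Promoter elements and changes were set side by side as a description. Of the 12 members with an ERSE or ERSE-II, 8 were lower in LGCAR against NG, all 12 values were negative and the median log2 fold change was -0.24. Of the 18 with a window and no exact match to either element, 9 were lower, 13 values were negative and the median was -0.13. Over all tested genes 8.75% were called, 4.12% lower, and 48.3% of the values were negative. The counts without NG 3, CAR 1 and LG 3 were 11 of the 12 lower and, of the 18, 10 lower and 2 higher. Without NG 1 and LGCAR 3 they were 3 of the 12 and 4 of the 18. The shares of all genes called in these settings are given above with LGCAR against NG. DNAJB9, BHLHA15, DERL2 and DNAJB11 were among the 9, and CALR, CANX, XBP1 and ERO1B held an element without being called.

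A wider list held 106 ER genes, 104 of them tested. In LGCAR against NG 25 were lower and 2 higher, with a median of -0.08, where 8.75% of all tested genes were called. In the setting without NG 3, CAR 1 and LG 3, 35 were lower and 7 higher (19.1% of all genes called), and without NG 1 and LGCAR 3, 6 of 105 tested were lower and 1 higher (1.71%). Of 20 further genes of unfolded protein response signalling 6 fell and 0 rose. ATF4, the factor translated when PERK is active, had 208, 208 and 212 CPM in LGCAR, 235, 237 and 275 CPM in LG, 279.7, 243 and 241 CPM in CAR and 265, 269 and 292 CPM in NG. Each LGCAR library was below every other library, and ATF4 fell in LGCAR against NG (edgeR log2 fold change -0.40 with SE 0.0679, adjusted p = 0.00514) and against CAR (edgeR log2 fold change -0.28 with SE 0.0679, adjusted p = 0.0448). NUPR1, a stress-induced nuclear protein, fell by 28.96% (edgeR adjusted p = 0.0166) and PPP1R15A, the phosphatase subunit GADD34 that reverses PERK signalling, by 16.5% (edgeR adjusted p = 0.0196) in LGCAR against NG. DDIT3, the factor CHOP of prolonged ER stress, rose in LG against NG (edgeR log2 fold change 0.29 with SE 0.069, adjusted p = 0.0446) and was at 0.00 in LGCAR against NG (edgeR adjusted p = 0.981). Its exons shared 31.6% of their length with opposite-strand genes, so its counts are uncertain.

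Among the other lists, 3 of 25 folding genes (12%) fell and 0 rose in LGCAR against NG. Of all tested genes, 4.12% were lower and 8.75% were called in either direction. The 3 were TXNDC11, a thioredoxin-like protein (-0.26), ERP44, which retains ERO1 and other clients (-0.23), and PPIB, a prolyl isomerase (-0.20). Opposite-strand genes overlapped 11.2% of the exon length of TXNDC11 and 27.2% of that of PPIB, whose counts are uncertain. Of 22 degradation genes 3 fell and 1 rose, among them SELENOS, a selenoprotein of the retrotranslocation complex (edgeR log2 fold change -0.30 with SE 0.0597, adjusted p = 0.0102), and UBE2J2, a ubiquitin-conjugating enzyme (-0.25). The gene that rose was FAM8A1, a cofactor of HRD1 (edgeR log2 fold change 0.25 with SE 0.0619, adjusted p = 0.0264), which was also higher in LGCAR against CAR (edgeR log2 fold change 0.27 with SE 0.0615, adjusted p = 0.0372). Of 37 entry and export genes 13 fell and 1, SEC24B, rose. SEC11C, a catalytic subunit of signal peptidase, fell by 32.6% (edgeR log2 fold change -0.57 with SE 0.104, adjusted p = 0.00653), SEC23B of the COPII coat by 15.3% (edgeR adjusted p = 0.0102) and SEC61G, the gamma subunit of the channel, by 15.8% (edgeR adjusted p = 0.0124). SEC11C and SEC61G also fell in LGCAR against CAR, by 26.8% and 13.7% (edgeR adjusted p = 0.0388 and 0.0470). Of the genes of these wider lists, ATF4 and SEC11C kept their LGCAR against NG calls without any 1 library. All other calls named from them, in any comparison, were lost without at least 1, among them NUPR1, PPP1R15A and SEC61G without NG 3. Each of 6 single removals ended the calls of ATF4, FAM8A1 and SEC61G in LGCAR against CAR and of PPIB in LGCAR against NG. Of 6 removals in LG against NG, 5 ended that of DDIT3 and 4 that of SSR3. In LGCAR against CAR, 5 ended that of SEC11C. In LGCAR against NG, 5 ended those of TXNDC11, ERP44 and UBE2J2 and 4 those of FAM8A1 and SEC24B. There 2 or 3 ended those of NUPR1, PPP1R15A, SEC23B, SEC61G and SELENOS. With the trend on exon length removed, SEC61G lost its calls in LGCAR against NG (edgeR adjusted p = 0.0911) and against CAR (edgeR adjusted p = 0.108). PPIB then lost its call in LGCAR against NG (edgeR adjusted p = 0.133), and the other genes named from these lists kept theirs. Without NG 1 and LGCAR 3 the 7 called in LGCAR against NG included ATF4, SEC11C, SEC23B, SELENOS and FAM8A1. In LG against NG, SSR3 of the translocon-associated complex was the one gene of these lists that fell (edgeR log2 fold change -0.23 with SE 0.0468, adjusted p = 0.0197).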

How the data were processed

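The authors deposited counts per gene, in 1 table for each of 12 libraries. Libraries were made from total RNA with a stranded kit (NEBNext Ultra II Directional), per the labels' protocols. The submitters' processing notes name GRCh38 and the tools GATK, STAR, Salmon and fastp. The tool and annotation behind the counts, and whether they used the strand, are not given in these sources. Totals ran from 18069004 to 24837409 counts, and libraries of a group differed by more than counting error (chi-square per degree of freedom 2.82 to 24.6).

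CPM and log2 fold changes were computed here with TMM scaling. Genes that passed filterByExpr, 15104 of 40929, were tested across all 12 libraries in R 4.3.3 by edgeR 4.0.16 (quasi-likelihood, robust), adjusted by Benjamini-Hochberg over all tested genes at a threshold of 0.05. The biological coefficient of variation common to all genes was 6.94%. Each SE was derived here, as the absolute edgeR log2 fold change divided by the square root of the test's F statistic. The members and lists were chosen with earlier results of these data known. Values per library are given for the sensors, XBP1 and the 3 members of each role with the smallest p in LGCAR against NG. The wider lists are named by up to 3 called genes each. CRELD2, DNAJB11, SDF2L1, DNAJC3, ERO1A, EDEM1 and SEC24B were added after their values were seen. Exon lengths and overlaps are from GENCODE 29. No member shared 10% or more of its exons on the same strand.

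Alternatives were other scalings and filters, DESeq2 1.42.0, limma-voom (3.58.1), no robust estimation, groups compared alone, a replicate block, ribosomal RNA left out or as a covariate, and libraries left out. Leaving out NG 3, CAR 1 and LG 3, and removing a trend on exon length, were chosen after seeing the data. Figures used matplotlib 3.10.9.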

Additional observations from a re-analysis of the deposited data

How the results depend on the processing

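Among 21 alternatives for each comparison (26 for the interaction), no called member changed sign, and the counts of members called were 0 throughout in LGCAR against LG and in the interaction. In LGCAR against NG, with 17 as reported, leaving out 1 library gave 6 to 17 (6 without NG 3), leaving out NG 1 and LGCAR 3 gave 7, and the other settings gave 14 to 25. In LG against NG, with 4 as reported, leaving out 1 library gave 2 to 6. The other settings that moved it by over 1.5 times gave 7 with DESeq2, 2 with the groups compared alone, 1 without NG 1 and LGCAR 3, 8 with the ribosomal RNA share as covariate, 10 without NG 3, CAR 1 and LG 3 and 7 with the trend on exon length removed. In LGCAR against CAR, with 6 as reported, leaving out 1 library gave 1 to 4. It was 10 with library totals, 10 with DESeq2, 0 without NG 1 and LGCAR 3, 1 with the ribosomal RNA share as covariate, 12 without NG 3, CAR 1 and LG 3 and 10 with the trend on exon length removed. In CAR against NG the count was 0, and 2 without NG 3, CAR 1 and LG 3. Over all tested genes, 8.75% were called in LGCAR against NG, 1.73% in LG against NG and 1.65% in LGCAR against CAR as reported. That share moved between settings too, as given above for some of them. These counts alone thus do not separate a change in the members from one in all calls. The causes of the shifts were not tested. The replicate block gave 2 in LG against NG (without HSPA5, edgeR adjusted p = 0.0752, and DNAJB9, edgeR adjusted p = 0.0622), 3 in LGCAR against CAR and 14 in LGCAR against NG. The labels do not state whether the numbers pair the libraries. Of 18 pairs of libraries with the same number 2 had a correlation of deviations over 0.1 (-0.11 to 0.14). Of 12 libraries 3 correlated best with their own number. Low correlations cannot show that no culture or day was shared.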
